A study of Homo sapiens with 9 samples.

Results

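The microRNA processing and silencing machinery was followed in ES-2 cells through 10 genes that were chosen by name: AGO1, AGO2, AGO3, AGO4, TNRC6A, TNRC6B, TNRC6C, DICER1, DROSHA and DGCR8. All 10 were found among the 58174 genes of the deposited tables. The rule itself names genes and uses no level, but it was set with earlier results of these data known. ES-2 is an established cell line from a human ovarian carcinoma. Cells were transfected with a control siRNA (siC), with an siRNA pool against IGF2BP1 (siIGF2BP1) or with a pool against SRF (siSRF) and harvested after 72 h, and their total RNA, depleted of ribosomal RNA, was sequenced in 3 libraries per group. All 9 libraries thus come from cells that had received siRNA, a cargo of the Argonaute proteins themselves. The labels do not say whether the 3 libraries of a group came from separate cultures, so p-values measure the spread between these libraries, which may be technical. RNA was measured, not protein, and microRNAs were not analysed here.

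A microRNA is cut from its primary transcript in the nucleus by DROSHA, a ribonuclease that works with its RNA-binding partner DGCR8, and in the cytoplasm by DICER1, which releases the short duplex. An Argonaute protein (AGO1 to AGO4) keeps 1 strand and pairs its seed with a target mRNA, and a TNRC6 protein (also known as GW182) bound to the Argonaute recruits the deadenylases that shorten the poly(A) tail before decapping and decay. IGF2BP1 is an oncofetal mRNA-binding protein that the study places between microRNAs and the mRNA of SRF, a transcription factor. The comparisons below ask whether the mRNAs of the machinery differed between cells depleted of either protein and control cells.

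Between 6421764 and 9416175 reads per library fell on genes, and between 44 and 2191 of them on a given gene of the machinery. The values are FPKM, reads scaled by gene length and library size by the authors. As a check of the labels, siIGF2BP1 libraries held 4.11 FPKM ± 0.0846 (SD, n = 3) of IGF2BP1 mRNA, against 12.8 FPKM ± 0.689 in the siC and 14.2 FPKM ± 0.455 in the siSRF libraries. The siSRF libraries held 1.47 FPKM ± 0.145 (SD, n = 3) of SRF mRNA and the siIGF2BP1 libraries 6.01 FPKM ± 0.714, against 14.5 FPKM ± 1.28 in the siC libraries, so SRF mRNA was low in both knockdowns. Of the markers used to check the cell line, VIM, KRT18, CDH2, KRT8 and FN1 were above 3 FPKM in every library, MUC16, PTPRC, CD3E and ALB were at 0 in all 9, and PAX8, EPCAM, CD14 and PECAM1 did not exceed 0.945 FPKM.

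In siC cells DICER1 stood highest at 10.6 FPKM ± 0.414 (SD, n = 3), followed by AGO2 at 10.4 FPKM ± 0.426, DROSHA at 9.86 FPKM ± 0.764, DGCR8 at 8.62 FPKM ± 0.909 and AGO1 at 7.96 FPKM ± 0.268. Each of these 5 genes overlapped its neighbour in this order over the 3 libraries. TNRC6A (6.28 FPKM ± 0.424) and TNRC6B (5.84 FPKM ± 0.0928) lay below AGO1 without overlap and overlapped each other. AGO3 (1.91 FPKM ± 0.0723) and AGO4 (1.90 FPKM ± 0.0400) were alike at a lower level, and TNRC6C was lowest at 1.11 FPKM ± 0.0898. DICER1 stayed first and TNRC6C last in siIGF2BP1, whereas both ends of the order changed in siSRF. In siIGF2BP1 the DICER1 libraries stood clear of TNRC6A, which came next at 9.17 FPKM ± 0.580, while AGO1 was 7th of 10. In siSRF the first place was taken by AGO2 at 15.0 FPKM ± 0.459, without overlap with DICER1, and AGO4 fell to the last place, where it overlapped TNRC6C. Such levels per length depend on the gene length the authors used, which was 1.62 times the GENCODE canonical transcript for DGCR8, 1.52 times for TNRC6A and 1.44 times for DROSHA, and between 1.0 and 1.18 times for the other members.

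**Figure D1:**
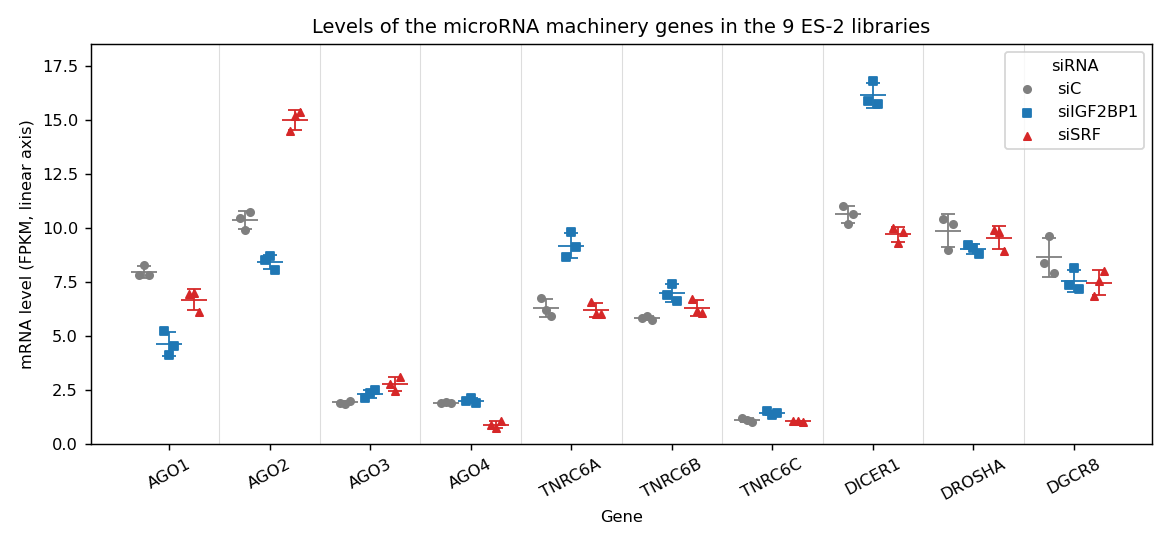
Level of each gene of the machinery in FPKM on a linear axis, with 1 point per library, the group mean as a horizontal bar and the SD as a vertical bar (n = 3 per group). DICER1 and TNRC6A are highest in siIGF2BP1, AGO1 is lowest there, and in siSRF AGO2 is highest and AGO4 lowest, each without overlap with the other groups.

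Upon IGF2BP1 depletion, AGO1 fell to 58.1% of its siC mean, while DICER1 rose to 152% and TNRC6A to 146%. These 3 genes passed an adjusted p of at most 0.01 in the limma-trend fit across all genes, which makes 1 member lower and 2 higher of 10 tested. Over all 22292 genes tested, 3.57% were called lower and 3.55% higher. The groups did not overlap for 7 of the 10 members, against 35.6% of all genes. These shares over all genes include genes down to 0.1 FPKM, a lower level than that of the members. Restricted to genes of at least 1 FPKM, limma-trend called 1 member lower and 2 higher of 10, against 999 and 932 of 14263 genes. With limma-voom, which weights the recovered read counts by their precision, 2 members were lower (AGO1 and AGO2) and 3 were higher (DICER1, TNRC6A and TNRC6B), against 8.48% lower and 8.59% higher of all genes. The median log2 fold change was 0.16 over the 10 members, 0.02 over all genes tested and -0.02 over protein-coding genes of at least 1 FPKM. Correcting each library for GC content and length of the genes, an alternative chosen after the data were seen, gave a members' median of 0.04.

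Upon SRF depletion, AGO2 rose to 145% of its siC mean and AGO4 fell to 45.9%. These were the only members past the threshold by limma-trend, 1 lower and 1 higher of 10, against 5.34% lower and 6.85% higher of 21857 genes tested. By limma-voom, AGO1 and AGO4 were lower and AGO2 and AGO3 were higher, against 10.7% lower and 12.7% higher of all genes. The groups did not overlap for 6 of the 10 members and for 39.9% of all genes. Restricted to genes of at least 1 FPKM, limma-trend called 0 members lower and 1 higher of 10, against 1357 and 1783 of 14008 genes. None of the calls by either tool fell on DICER1, DROSHA, DGCR8 or a TNRC6 gene. The median log2 fold change was -0.06 over the members, 0.01 over all genes and 0.04 over protein-coding genes of at least 1 FPKM. With GC content and length taken out the members' median was -0.02. Both knockdowns were compared with the same siC libraries.

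The comparison of siIGF2BP1 with siSRF uses no siC library and tests the difference between the knockdowns itself. AGO2 was lower in siIGF2BP1 than in siSRF, and AGO4, DICER1 and TNRC6A were higher, so that 1 member was lower and 3 were higher by limma-trend. Over all 22311 genes, 11.2% were called lower and 8.82% higher. By limma-voom, AGO1 and AGO2 were lower and AGO4, DICER1, TNRC6A and TNRC6C were higher, against 16.3% lower and 14.7% higher of all genes. The groups did not overlap for 6 of the 10 members, against 46.1% of all genes. Restricted to genes of at least 1 FPKM, limma-trend called 2 members lower and 3 higher of 10, against 2741 and 2018 of 14195 genes. The median log2 fold change was 0.08 over the members, 0.02 over all genes and -0.06 over protein-coding genes of at least 1 FPKM. With GC content and length taken out the members' median changed sign, to -0.04.

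**Figure D2:**
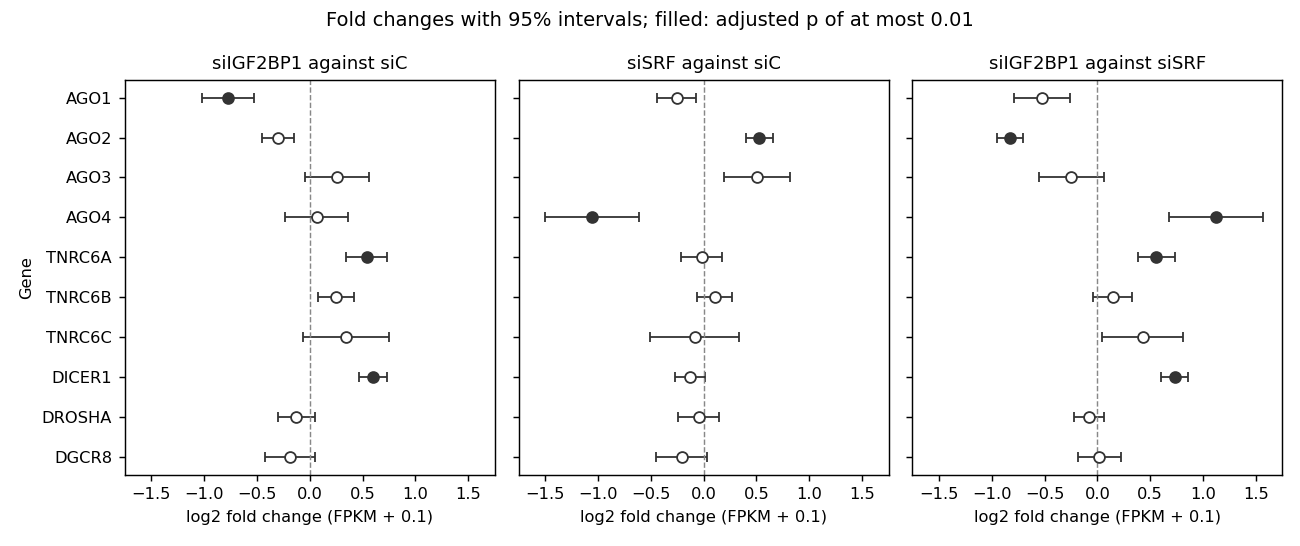
Log2 fold change of each gene of the machinery on the log2(FPKM + 0.1) scale with its 95% interval from limma-trend, in the 3 comparisons (3 libraries per group). Filled points have an adjusted p of at most 0.01 over all genes tested, and a positive value is higher in the group named first. AGO4 has the largest value of the panels, 1.12 in siIGF2BP1 against siSRF.

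DROSHA and DGCR8 form the Microprocessor, and neither was called in any comparison by either tool. DROSHA was at 10.4, 8.98 and 10.2 FPKM in the siC libraries, at 9.19, 9.07 and 8.77 FPKM in siIGF2BP1 and at 9.89, 9.80 and 8.93 FPKM in siSRF. DGCR8 was at 8.34, 9.64 and 7.88 FPKM in siC, at 7.36, 8.11 and 7.15 FPKM in siIGF2BP1 and at 6.84, 7.53 and 7.97 FPKM in siSRF. The 3 groups overlapped for both genes. The 95% interval of the log2 fold change upon IGF2BP1 depletion ran from -0.30 to 0.05 for DROSHA and from -0.42 to 0.05 for DGCR8, and upon SRF depletion from -0.24 to 0.15 and from -0.45 to 0.03. The ratio of DROSHA to DGCR8 FPKM was 1.16 ± 0.195 (SD, n = 3) in siC, 1.20 ± 0.0694 in siIGF2BP1 and 1.29 ± 0.164 in siSRF, and these groups overlapped as well (two-sided exact permutation test, p = 1 and p = 0.4 against siC). DGCR8 is itself the host of MIR1306 and MIR3618, both listed at a mean of 0 FPKM in every group. An antisense transcript (ENSG00000243762) covers 7.18% of the annotated exonic bases of DGCR8 and had means between 0.317 and 0.551 FPKM. Whether reads were counted by strand is not given in the sources used here, so reads from the shared bases cannot be told apart.

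DICER1, the ribonuclease that releases the microRNA duplex, was higher in every siIGF2BP1 library than in any other. It was at 11.01, 10.2 and 10.6 FPKM in siC, at 15.9, 16.8 and 15.7 FPKM in siIGF2BP1 and at 9.99, 9.29 and 9.79 FPKM in siSRF. The log2 fold change upon IGF2BP1 depletion was 0.60 (standard error 0.056, limma-trend adjusted p = 0.00151), and in siIGF2BP1 against siSRF it was 0.73 (standard error 0.052, adjusted p = 1.8e-04). Upon SRF depletion the 3 libraries lay below the siC libraries by little, with a log2 fold change of -0.13 (95% interval -0.27 to 0.01, adjusted p = 0.173), and -0.26 (adjusted p = 0.0114) with GC content and length taken out. Leaving out siIGF2BP1 replicate 3 took the adjusted p against siC to 0.0106. The antisense gene DICER1-AS1, which shares 80 exonic bases with DICER1, stayed at means of 0.465 FPKM or less.

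AGO1, the Argonaute with the lowest level in siIGF2BP1 relative to siC, was the member called lower there by limma-trend. It was at 7.81, 8.27 and 7.80 FPKM in siC, at 5.23, 4.12 and 4.53 FPKM in siIGF2BP1 and at 6.93, 6.98 and 6.10 FPKM in siSRF. The siSRF libraries lay between the other groups, without overlap with either. Upon IGF2BP1 depletion AGO1 changed by -0.78 on the log2 scale (standard error 0.101, limma-trend adjusted p = 0.00467), and upon SRF depletion the value was -0.25 (standard error 0.076, adjusted p = 0.0597). In siIGF2BP1 against siSRF it was -0.52, with an adjusted p of 0.0127 by limma-trend and 5.9e-07 by limma-voom, and with GC content and length taken out it was -0.61 (limma-trend adjusted p = 0.00638). The call against siC was lost, with an adjusted p of up to 0.0262, when any siC library or siIGF2BP1 replicate 2 or 3 was left out, while the log2 fold change stayed between -0.87 and -0.70. A lncRNA on the opposite strand (ENSG00000271914), which covers 2.82% of the AGO1 exonic bases, had means of 0.110 FPKM in siIGF2BP1 and 0.0923 FPKM in siSRF, against 0.382 FPKM in the control, and its part in the AGO1 values was not tested.

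AGO2, the Argonaute best known for cutting perfectly paired targets, went apart in the knockdowns. It was at 10.5, 9.90 and 10.7 FPKM in siC, at 8.48, 8.67 and 8.05 FPKM in siIGF2BP1 and at 14.5, 15.2 and 15.3 FPKM in siSRF, and no group overlapped another. The rise upon SRF depletion was 0.53 on the log2 scale (standard error 0.055, limma-trend adjusted p = 0.00147) and the difference of siIGF2BP1 against siSRF was -0.83 (standard error 0.052, adjusted p = 1.1e-04). Upon IGF2BP1 depletion the log2 fold change was -0.30 (standard error 0.062), with an adjusted p of 0.0223 by limma-trend and 7.6e-04 by limma-voom, and with GC content and length taken out it was -0.39 (limma-trend adjusted p = 0.00518). Without siSRF replicate 2, the adjusted p of the rise in siSRF was 0.0112.

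AGO3 and AGO4 are the less abundant Argonautes here. AGO3 was at 1.88, 1.86 and 1.99 FPKM in siC, at 2.13, 2.34 and 2.47 FPKM in siIGF2BP1 and at 2.76, 2.46 and 3.09 FPKM in siSRF. All libraries of both knockdowns were above all siC libraries, and the knockdowns overlapped. On the log2 scale siSRF differed from siC by 0.51 (standard error 0.129), with an adjusted p of 0.0337 by limma-trend and 3.6e-05 by limma-voom. Upon IGF2BP1 depletion it was 0.26 (95% interval -0.04 to 0.56, limma-trend adjusted p = 0.225), and 0.03 with GC content and length taken out. AGO4 was at 1.90, 1.94 and 1.86 FPKM in siC, at 1.99, 2.11 and 1.88 FPKM in siIGF2BP1 and at 0.849, 0.725 and 1.05 FPKM in siSRF. The siSRF libraries thus lay below all others, on 44, 48 and 56 reads against 91, 96 and 98 reads in siC. AGO4 changed by -1.05 on the log2 scale (standard error 0.185, limma-trend adjusted p = 0.00927) upon SRF depletion, by 0.07 (95% interval -0.23 to 0.37, adjusted p = 0.775) upon IGF2BP1 depletion and by 1.12 (standard error 0.184, adjusted p = 0.00482) in siIGF2BP1 against siSRF. By limma-voom the adjusted p of AGO4 upon SRF depletion was 2.5e-06, whereas by limma-trend the call was lost without any 1 of the 6 libraries, at adjusted p-values between 0.0141 and 0.0350, and also when all genes with a value above 0 or only genes of at least 1 FPKM were tested. A pseudocount of 1 in place of 0.1 gave -0.64 for AGO4 in siSRF against siC and 0.68 in siIGF2BP1 against siSRF, both still called.

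TNRC6A, TNRC6B and TNRC6C are the scaffolds that link the Argonautes to the deadenylases. TNRC6A was at 6.74, 6.18 and 5.91 FPKM in siC, at 8.63, 9.78 and 9.09 FPKM in siIGF2BP1 and at 6.54, 6.03 and 6.003 FPKM in siSRF. The siIGF2BP1 libraries were above all others, and siSRF overlapped siC. The rise upon IGF2BP1 depletion was 0.54 on the log2 scale (standard error 0.081, limma-trend adjusted p = 0.00757), and siIGF2BP1 differed from siSRF by 0.56 (standard error 0.071, adjusted p = 0.00169). Upon SRF depletion the log2 fold change was -0.02 (95% interval -0.21 to 0.17). The call against siC was lost without any 1 of the 6 libraries (adjusted p of at most 0.0360), and the one against siSRF without siSRF replicate 2 (adjusted p = 0.0102).

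TNRC6B was at 5.84, 5.93 and 5.75 FPKM in siC, at 6.87, 7.41 and 6.59 FPKM in siIGF2BP1 and at 6.70, 6.14 and 6.03 FPKM in siSRF. Both knockdowns lay above siC and overlapped each other. Upon IGF2BP1 depletion the log2 fold change was 0.25 (standard error 0.071), with an adjusted p of 0.0667 by limma-trend and 0.00793 by limma-voom, and it was 0.09 with GC content and length taken out. TNRC6C was at 1.20, 1.10 and 1.02 FPKM in siC, at 1.51, 1.33 and 1.45 FPKM in siIGF2BP1 and at 1.07, 1.04 and 1.00 FPKM in siSRF. Its siIGF2BP1 libraries were above the others, with a log2 fold change of 0.34 (95% interval -0.06 to 0.75, limma-trend adjusted p = 0.233) against siC and 0.43 (95% interval 0.05 to 0.81, adjusted p = 0.0886) against siSRF. TMC6 on the opposite strand covers 12.3% of the TNRC6C exonic bases and had means of 0.0401 FPKM or less. Exact permutation tests of single genes cannot go below p = 0.1 with 3 libraries against 3. Over the 30 tests of 10 members in 3 comparisons the smallest Benjamini-Hochberg value was 0.158. Of the 30 pairs of groups 19 did not overlap. The shares over all genes were 35.6% in siIGF2BP1 against siC, 39.9% in siSRF against siC and 46.1% in siIGF2BP1 against siSRF. The comparisons share libraries, so the 30 pairs are not independent.

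The makeup of the Argonaute mRNA pool differed in both knockdowns from siC. AGO1 made up 36.0% ± 1.48 (SD, n = 3) of the summed AGO FPKM in siC, 26.7% ± 2.73 in siIGF2BP1 and 26.4% ± 2.19 in siSRF, a difference from siC of -9.30 and -9.58 percentage points without overlap. AGO2 made up 46.8% ± 1.54 in siC, 48.5% ± 1.58 in siIGF2BP1 and 59.2% ± 1.20 in siSRF, where it stood apart from the other groups. The share of AGO3 was 8.63% ± 0.239, 13.4% ± 1.35 and 10.9% ± 1.20 in the same order, higher in both knockdowns than in siC. AGO4 took 8.59% ± 0.261 in siC, 11.5% ± 0.642 in siIGF2BP1 and 3.45% ± 0.617 in siSRF, with no overlap between any of the groups. With reads not divided by gene length, the difference in AGO4 share from siC was 1.36 rather than 2.92 percentage points in siIGF2BP1 and -2.60 rather than -5.15 in siSRF, and siIGF2BP1 exceeded siSRF by 3.96 rather than 8.07. The AGO3 share exceeded that in siSRF by 3.97 rather than 2.43 percentage points in siIGF2BP1 on that scale. A larger share of AGO4 in siIGF2BP1 came with an AGO4 level near that of siC and lower AGO1 and AGO2 levels.

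Of the summed TNRC6 FPKM, TNRC6A held 47.4% ± 1.28 (SD, n = 3) in siC, 52.2% ± 1.30 in siIGF2BP1 and 45.8% ± 0.224 in siSRF. TNRC6B held 44.2% ± 1.59, 39.6% ± 1.01 and 46.5% ± 0.278 in the same order. TNRC6C held 8.36% ± 0.329, 8.18% ± 0.882 and 7.67% ± 0.180. For TNRC6A and TNRC6B, no group overlapped another, whereas the TNRC6C shares in siIGF2BP1 overlapped those of both other groups.

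**Figure D3:**
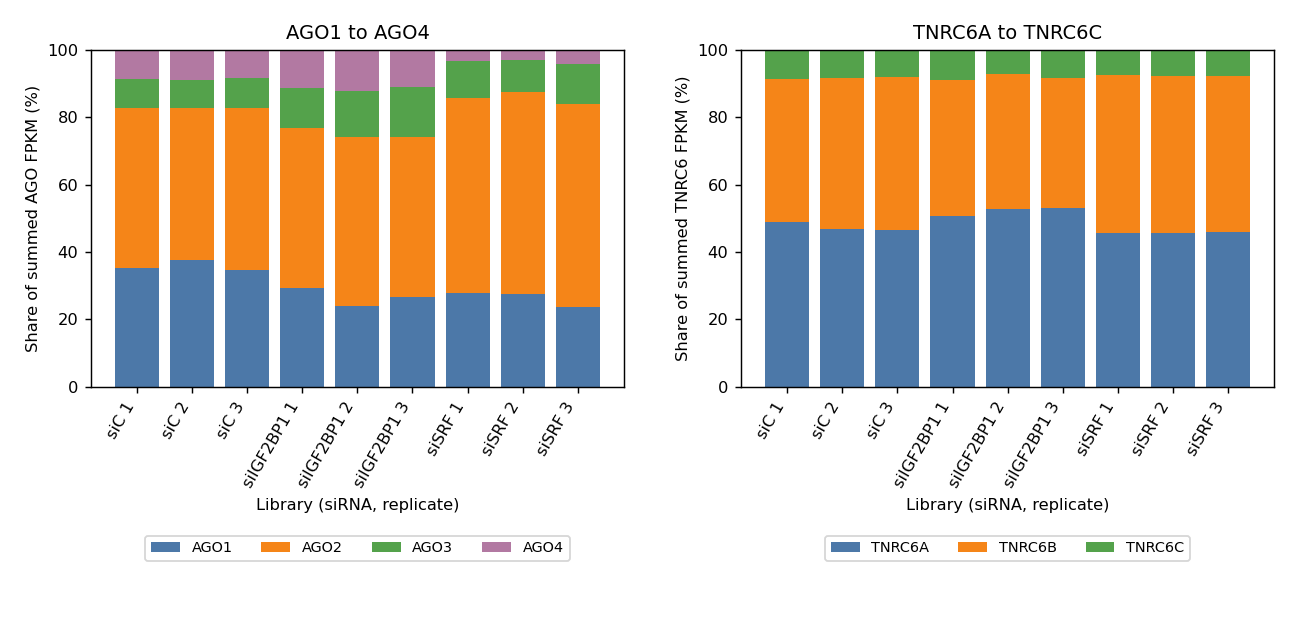
Stacked bars of the share of each gene in the summed AGO1 to AGO4 FPKM (left) and the summed TNRC6A to TNRC6C FPKM (right), in percent, with 1 bar per library. The AGO1 segment is shorter in all 6 knockdown libraries than in the 3 siC libraries, and AGO4 is narrowest in siSRF, at 2.86% to 4.09%.

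The sums of both families, which were computed after the single values were seen, lay on opposite sides of siC upon IGF2BP1 depletion. The summed AGO level was lowest in siIGF2BP1 (17.3 FPKM ± 0.456, SD, n = 3), higher in siC (22.1 FPKM ± 0.222) and highest in siSRF (25.3 FPKM ± 0.278), with no overlap between groups. The summed TNRC6 level was highest in siIGF2BP1 (17.6 FPKM ± 0.841), while siC (13.2 FPKM ± 0.553) and siSRF (13.5 FPKM ± 0.694) overlapped. The TNRC6 sum amounted to 0.625, 0.602 and 0.566 of the AGO sum in the siC libraries, to 0.954, 1.07 and 1.01 in siIGF2BP1 and to 0.572, 0.521 and 0.510 in siSRF. The siIGF2BP1 libraries were thus near equal sums, and each exact test of them against another group reached p = 0.1, the smallest possible (33 tests of shares, sums and ratios, smallest Benjamini-Hochberg value 0.143). Equality of the sums depends on the gene lengths the authors used. These were 1.52 times the canonical transcript for TNRC6A and between 1.0 and 1.08 times for the AGO genes.

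**Figure D4:**
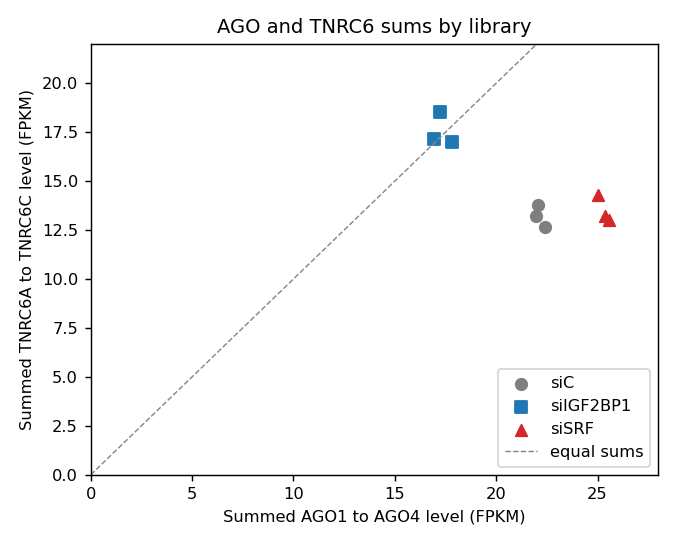
Summed TNRC6A to TNRC6C level against summed AGO1 to AGO4 level, both in FPKM on linear axes, with 1 point per library and a dashed line where the sums are equal. The 3 siIGF2BP1 libraries lie at the line, between 16.9 and 17.8 FPKM of AGO, and the siC and siSRF libraries lie below it. Positions relative to the line depend on the gene lengths the authors used.

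The mRNAs of the machinery are themselves potential targets of microRNAs. The study followed miR-23a-3p, miR-125a-5p, let-7 and miR-22 in these cells, and their mature sequences from the RefSeq table are shown because they define the matches described next. Capitals mark the seed, bases 2 to 8.
let-7a-5p: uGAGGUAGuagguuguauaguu
miR-23a-3p: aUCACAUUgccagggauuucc
miR-125a-5p: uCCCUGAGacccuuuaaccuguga
miR-22-3p: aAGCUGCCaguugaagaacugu
The let-7a-5p seed is shared by 11 mature microRNAs of that table, those of miR-23a-3p and miR-125a-5p by 3 each, and that of miR-22-3p by 1. The 3′UTR of each member's GENCODE canonical transcript was searched on its sense strand for the reverse complement of each seed (CTACCTC for let-7, AATGTGA for miR-23a-3p, CTCAGGG for miR-125a-5p and GGCAGCT for miR-22-3p). All 3 TNRC6 mRNAs held matches to miR-23a-3p: 3 in TNRC6A, 2 in TNRC6B and 2 in TNRC6C. Among 3′UTRs of like length (80% to 125%), 30.0%, 74.8% and 38.9% held at least 1, so such matches are common at the length of the TNRC6B 3′UTR (12567 bases). DICER1 held 1 match to miR-23a-3p and 1 to miR-125a-5p, which 42.6% and 28.7% of like 3′UTRs held. AGO1 held none to miR-23a-3p, 1 to let-7, 1 to miR-125a-5p and 2 to miR-22-3p. Of 3′UTRs of like length to that of AGO1, 72.4%, 49.1%, 52.6% and 52.6% held at least 1, in that order. AGO2 held 2 to let-7, 4 to miR-23a-3p and 1 to miR-125a-5p, and AGO3 held 1 to let-7, 3 to miR-23a-3p and 2 to miR-22-3p. DGCR8 held 2 to miR-22-3p and each TNRC6 gene 1, and in AGO4 and DROSHA none of the 4 letter strings was found. The matches to let-7a-5p, miR-23a-3p and miR-125a-5p in the genes called upon IGF2BP1 depletion, with the other TNRC6 genes for comparison, are printed without those to miR-22-3p, in the sense of the mRNA as DNA letters with 11 flanking bases on each side and the match in capitals (GRCh38, all in 3′UTR exons).
TNRC6A, miR-23a-3p match at chr16:24823976-24824004, plus strand: gccaatattatAATGTGAaaaggtatcta
TNRC6A, miR-23a-3p match at chr16:24825361-24825389, plus strand: tttacaaatagAATGTGAttgtaaaatgt
TNRC6A, miR-23a-3p match at chr16:24825607-24825635, plus strand: caccctgaaatAATGTGAgaacaatggga
TNRC6B, miR-23a-3p match at chr22:40323500-40323528, plus strand: cctagaaagacAATGTGAagcaagtacac
TNRC6B, miR-23a-3p match at chr22:40331594-40331622, plus strand: attattatgcaAATGTGAattttgatact
TNRC6C, miR-23a-3p match at chr17:78105505-78105533, plus strand: gccaatagtgaAATGTGAacactttctaa
TNRC6C, miR-23a-3p match at chr17:78107355-78107383, plus strand: tttcctcatagAATGTGActgttgaagaa
DICER1, miR-23a-3p match at chr14:95087847-95087875, minus strand: cctgtgattgcAATGTGAgaccgaatgta
DICER1, miR-125a-5p match at chr14:95088184-95088212, minus strand: ggtcatacattCTCAGGGgttcaaatttc
AGO1, let-7a-5p match at chr1:35920681-35920709, plus strand: ccttattcctcCTACCTCccgccccgccc
AGO1, miR-125a-5p match at chr1:35925528-35925556, plus strand: atttttgtcatCTCAGGGtcatggcatat
The TNRC6A match at 180 bases into its 3′UTR, both TNRC6B matches and the TNRC6C match at 671 bases are followed by an A. The members with miR-23a-3p matches were TNRC6A, TNRC6B, TNRC6C, DICER1, AGO2 and AGO3. Upon IGF2BP1 depletion limma-trend called TNRC6A and DICER1 higher, and did not call TNRC6B, TNRC6C, AGO2 or AGO3. A relation between matches and levels was not tested. A match is a description of letters, and binding was not measured here.

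AGO4, AGO1 and AGO3 lie side by side on the plus strand of chromosome 1 (GRCh38), AGO4 at chr1:35808016-35857890, AGO1 at chr1:35869808-35930532 and AGO3 at chr1:35930718-36072500. The annotated gaps are 11917 bases between AGO4 and AGO1 and 185 bases between AGO1 and AGO3. Upon SRF depletion the log2 fold changes of these neighbours were -1.05 for AGO4, -0.25 for AGO1 and 0.51 for AGO3. Upon IGF2BP1 depletion they were 0.07, -0.78 and 0.26. Of these genes limma-trend called only AGO4 upon SRF depletion and only AGO1 upon IGF2BP1 depletion. Differences between the neighbours were not tested. As the genes are adjacent, their promoters are shown, 250 bases before to 50 after the RefSeq start (GRCh38.p14), with motif matches in capitals.
AGO4 promoter, chr1:35807766-35808065, plus strand: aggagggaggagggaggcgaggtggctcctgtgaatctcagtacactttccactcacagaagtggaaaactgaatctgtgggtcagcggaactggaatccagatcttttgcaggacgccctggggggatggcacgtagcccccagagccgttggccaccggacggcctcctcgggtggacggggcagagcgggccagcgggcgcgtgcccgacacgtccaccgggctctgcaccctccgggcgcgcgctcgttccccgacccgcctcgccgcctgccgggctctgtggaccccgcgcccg
AGO1 promoter, chr1:35882959-35883258, plus strand: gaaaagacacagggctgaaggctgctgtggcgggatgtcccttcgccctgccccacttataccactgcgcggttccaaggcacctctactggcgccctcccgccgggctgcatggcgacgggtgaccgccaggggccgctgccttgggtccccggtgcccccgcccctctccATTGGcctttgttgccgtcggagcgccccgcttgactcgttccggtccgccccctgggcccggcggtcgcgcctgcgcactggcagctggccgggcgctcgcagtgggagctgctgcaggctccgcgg
AGO3 promoter, chr1:35930855-35931154, plus strand: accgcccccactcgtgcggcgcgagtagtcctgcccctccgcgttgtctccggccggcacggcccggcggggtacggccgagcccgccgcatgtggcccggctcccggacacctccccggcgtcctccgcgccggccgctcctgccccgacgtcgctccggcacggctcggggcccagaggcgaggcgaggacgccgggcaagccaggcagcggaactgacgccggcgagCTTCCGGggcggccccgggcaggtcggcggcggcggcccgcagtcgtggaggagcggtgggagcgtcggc
The CArG box (the motif SRF binds), the TATA box (TATAAA), the CCAAT box and the ETS core (CCGGAAG) were searched on both strands. The AGO1 promoter held 1 CCAAT match, the AGO3 promoter held 1 ETS core and the AGO4 promoter held none of them. Promoters were in the table for 9 of the 10 members, AGO2 being the exception, and none of these held a CArG box or TATAAA, which 1.29% and 11.53% of 35116 promoters held. CCAAT was found in 34.61% and the ETS core in 10.26% of all. The remaining members had 1 CCAAT match and 2 ETS cores in TNRC6A, 5 and 1 in TNRC6B, 2 and 0 in TNRC6C, 1 and 0 in DICER1, 3 and 0 in DROSHA and 4 and 0 in DGCR8. DICER1 had 5 promoter entries and TNRC6C 4, of which the 1 at the start of the GENCODE canonical transcript was searched. The only TNRC6B entry (chr22:40044584-40044883) spans the annotated start of the gene at 40044817, but lies 133091 bases from the start of its canonical transcript. The AGO1, AGO3, TNRC6A and DICER1 promoters lie at the canonical transcript start, inside the annotated genes. AGO1 begins at chr1:35869808, AGO3 at chr1:35930718 and TNRC6A at chr16:24610209, and DICER1, on the minus strand, at chr14:95158010. The 9 promoters had between 57.3% and 80.3% GC, against a median of 58.7% over all promoters.

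The partners of the machinery were described through 66 further genes in 6 lists, of which 64 were tested. Upon IGF2BP1 depletion 7 were called lower and 1 higher by limma-trend, against 3.57% lower and 3.55% higher of all genes. Their median log2 fold change was -0.03, against 0.02 over all genes tested and -0.02 over protein-coding genes of at least 1 FPKM. The lower ones included 3 Argonaute-loading chaperone genes: FKBP4 went from 46.3 FPKM ± 2.09 (SD, n = 3) to 28.7 FPKM ± 1.45, PTGES3 (the p23 cochaperone) from 82.0 FPKM ± 7.18 to 55.2 FPKM ± 2.57, and HSP90AB1 from 1074 FPKM ± 74.0 to 748.3 FPKM ± 32.2. Among the Microprocessor partners, ERH (log2 fold change -0.57) and KHSRP (-0.46) were lower and the helicase DDX17 was higher (0.36), with limma-trend adjusted p-values of 0.00240, 0.00382 and 0.00452. RAN, the GTPase that XPO5 needs for export, fell by 0.39 on the log2 scale (adjusted p = 0.00972), and the decapping scaffold EDC3 fell by 0.67 (adjusted p = 0.00469). None of the 16 deadenylation genes and none of the 10 tested tailing and turnover genes was called by limma-trend, although 3 and 5 of them had an unadjusted p under 0.05 and limma-voom called 1 and 2. With all genes above 0 tested, HSP90AB1 and RAN had adjusted p-values of 0.0157 and 0.0126. Over the 64 genes limma-voom called 15 lower and 5 higher, against 8.48% and 8.59% of all genes, and without any 1 library limma-trend called 1 to 3.

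Upon SRF depletion 1 of the 64 was called lower and 13 higher, against 5.34% lower and 6.85% higher of all genes. Their median log2 fold change was 0.13, against 0.01 over all genes tested and 0.04 over protein-coding genes of at least 1 FPKM. The deadenylase subunit CNOT7 went from 8.26 FPKM ± 0.583 (SD, n = 3) to 14.9 FPKM ± 0.210, the largest log2 fold change of the 64 (0.85, limma-trend adjusted p = 6.0e-04). PAN2, the catalytic subunit of the other deadenylase, went from 3.20 FPKM ± 0.334 to 1.90 FPKM ± 0.0439 and was the only one lower (-0.72, adjusted p = 0.00782). Higher were also LSM1 (0.75) and DCP1A (0.49) of the decapping list, the exoribonuclease genes PNPT1 (0.75), ERI1 (0.66) and XRN2 (0.46), the TSN and TSNAX genes of the nuclease C3PO (0.38 and 0.57), FXR1 (0.28), the export genes XPO5 (0.35) and RAN (0.40), and DDX17 (0.33) and DDX5 (0.27) of the Microprocessor partners. With GC content and length taken out, 6 of these calls were lost: FXR1 (0.082, limma-trend adjusted p = 0.232), DDX5 (0.12, 0.0562), RAN (0.23, 0.0160), TSN (0.22, 0.0323), TSNAX (0.34, 0.0116) and PAN2 (-0.64, 0.0111). FXR1 was also lost with median-ratio rescaling (adjusted p = 0.0138), and PAN2 with all genes above 0 tested (0.0107). By limma-voom 6 were lower and 22 higher, against 10.7% and 12.7% of all genes. With only genes of at least 1 FPKM tested, limma-trend called 2 lower and 15 higher of 63, against 1357 and 1783 of 14008 genes. Without siC replicate 3 the fit called 10 of the 64, and without any 1 of the other libraries it called 3 to 5.

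In siIGF2BP1 against siSRF, 19 of the 64 were lower and 3 higher, against 11.2% lower and 8.82% higher of all genes. Their median log2 fold change was -0.16, against 0.02 over all genes tested and -0.06 over protein-coding genes of at least 1 FPKM. With only genes of at least 1 FPKM tested, limma-trend called 20 lower and 4 higher of 63, against 2741 and 2018 of 14195 genes. The 12 Argonaute loading genes had the lowest list median, -0.35, with 6 lower and 1 higher. Among them HSP90AB1 differed by -0.87, FXR2 by -0.82 and FKBP4 by -0.82 on the log2 scale, while the helicase MOV10 was higher by 0.70 (7.38 FPKM ± 0.299 in siSRF and 12.0 FPKM ± 0.489 in siIGF2BP1, SD, n = 3). RAN (-0.78) was lower and the RNA editor ADAR (0.35) higher among the export and dicing partners. CNOT7 (-0.70) and CNOT9 (-0.30) were lower and PAN2 (1.01) higher among the deadenylation genes. DCP1A (-0.90), LSM1 (-0.84), EDC3 (-0.51), PNPT1 (-0.93), ERI1 (-0.43), XRN2 (-0.23), ERH (-0.85), SRSF3 (-0.40), KHSRP (-0.38) and DDX5 (-0.34) were lower too, each with a limma-trend adjusted p of at most 0.00842. The XRN2 value was -0.12 (adjusted p = 0.0569) with GC content and length taken out, and its call was also lost with median-ratio rescaling (0.0212) and with all genes above 0 tested (0.0115), as was that of CNOT9 with all 9 libraries in one fit (0.0156).

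**Figure D5:**
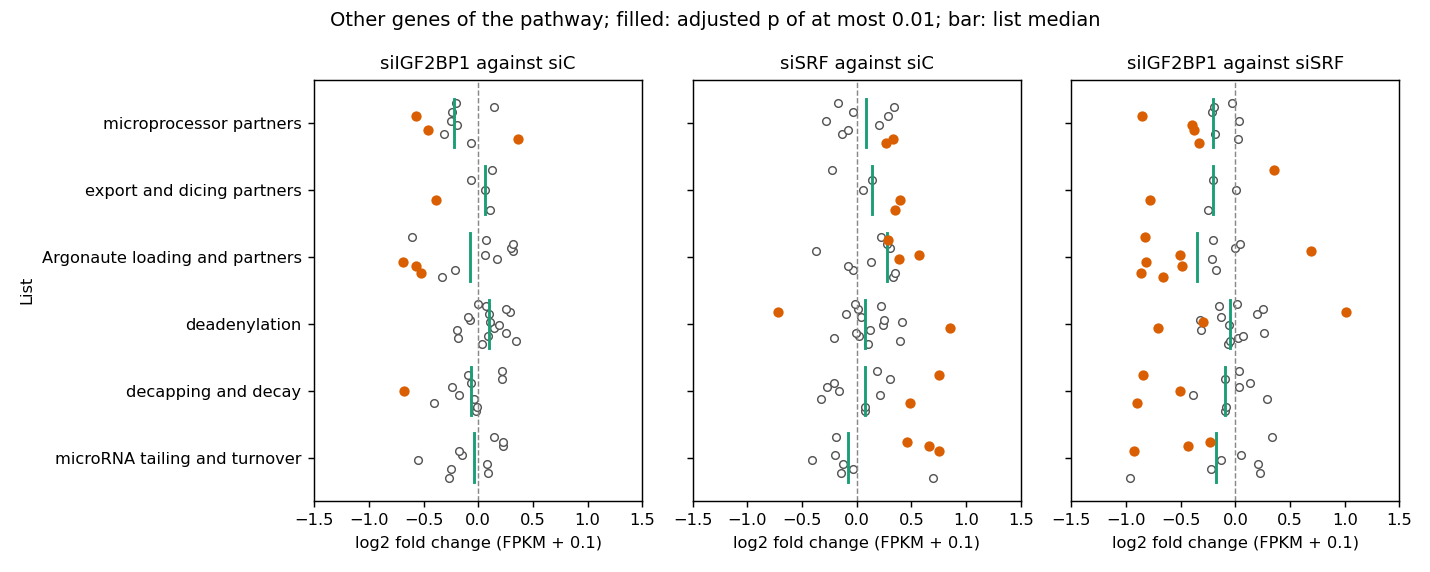
Log2 fold changes on the log2(FPKM + 0.1) scale of the other genes of the pathway, by list, in the 3 comparisons. Each point is a gene, filled points have an adjusted p of at most 0.01 by limma-trend over all genes tested, and the vertical bar is the list median. Filled points are mostly left of 0 in siIGF2BP1 against siC (7 of 8) and right of 0 in siSRF against siC (13 of 14). Of all genes tested, 3.57% were called lower and 3.55% higher in the former, and 5.34% and 6.85% in the latter. With only genes of at least 1 FPKM tested, 999 and 932 of 14263 genes were called in the former. In the latter, 1357 and 1783 of 14008 were called. Both comparisons use the same siC libraries. With GC content and length taken out, 6 of the 14 calls in siSRF against siC were lost.

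AGO4 and AGO2 had the widest range of group means of the members, 1.12 and 0.83 on the log2 scale. Over the 9 libraries, the protein-coding genes of at least 1 FPKM whose centred log2 values were nearest to AGO4, among 10379 compared, were DOK1 (root mean square difference 0.070), ADAMTS2 (0.096) and KLHL22 (0.102). For DOK1 the group means were 1.48 FPKM in siSRF, 3.12 FPKM in siIGF2BP1 and 3.14 FPKM in siC. Nearest to AGO2 were ATG12 (0.046), NUP43 (0.055) and AGPAT5 (0.057). For ATG12 the group means were 12.5 FPKM in siSRF, 8.97 FPKM in siC and 7.24 FPKM in siIGF2BP1. As RNA was taken from whole cultures, fewer cells with a transcript and less of it per cell cannot be told apart.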

How the data were processed

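Total RNA-seq libraries of ES-2 cells were grouped by their labels. The authors clipped reads with cutadapt 1.14, aligned them to GRCh38 with HISAT2 2.1.0, counted them on Ensembl genes with featureCounts 1.5.3, normalized with edgeR 3.18.1 and deposited FPKM values per library. The log2 fold changes and p-values of their own comparisons, also deposited by the authors, were not used. The 2 tables share the same siC values, and multiplying the 9 scaling factors gave 1. Whole reads were recovered for 100% of values (tolerance 0.01 read).

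Genes averaging 0.1 FPKM or more in the 6 libraries compared were fitted with limma 3.58.1 (lmFit, eBayes with trend; R 4.3.3) on log2(FPKM + 0.1), a scale that makes changes of low genes look smaller. Benjamini-Hochberg adjustment covered every gene fitted, with a threshold of 0.01. Shares, sums and ratios were tested by two-sided exact permutation (scipy 1.17.1). The fit was tested on simulated data. Alternatives were other pseudocounts, filters, scaling, adjustment and threshold, limma-voom, all 9 libraries, a replicate block and leaving out each library. Depth was 6421764 to 9416175 reads per library and fell to 44 reads on a member (AGO4), which limits its precision. Further pathway genes were named if called, up to 4 per list and comparison by size of change. The members and lists were chosen with earlier results of these data known. Positions and 3′UTRs are from GENCODE release 44, a later annotation than the counted one, and promoters and microRNAs from RefSeq tables.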

Additional observations from a re-analysis of the deposited data

How the results depend on the processing

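Of 480 recomputed log2 fold changes of single members, 425 kept their direction and their side of the threshold, 34 lost the call, 13 gained one and 8 changed sign. Most of the 480 belong to members not called in the main fit, which had no call to lose. The filters, the adjustment, the replicate block and the fit of all 9 libraries leave the log2 fold change itself unchanged. The 425 are thus no measure of how stable the calls were. By limma-voom 5 members were called in siIGF2BP1 against siC and 4 in siSRF against siC. Only 1 member was called in siSRF against siC when all genes with a value above 0, or only those of at least 1 FPKM, were tested. Over all genes these fits called 1039 lower and 1344 higher of 28872, and 1357 lower and 1783 higher of 14008. Of the other pathway genes, limma-voom called 20 in siIGF2BP1 against siC and 28 in siSRF against siC. A threshold of 0.05 gave 15, 27 and 34 of them in siIGF2BP1 against siC, siSRF against siC and siIGF2BP1 against siSRF. Over all genes it called 1836 lower and 1760 higher of 22292, 2306 and 2899 of 21857, and 3787 and 3345 of 22311 in the same order. All 9 libraries in one fit gave 13 of the other pathway genes in siIGF2BP1 against siC, against 1309 lower and 1172 higher of all 22292 genes. Leaving out 1 library gave 0 to 2, 0 to 1 and 2 to 4 members in the same order of comparisons, and 1 to 3, 3 to 10 and 15 to 19 other pathway genes. Over all genes such fits called 224 to 329, 482 to 673 and 1577 to 1951 lower, and 212 to 420, 464 to 1123 and 1214 to 1455 higher. The counts fall with fewer libraries per fit, and the cause of the other changes was not tested.

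Replicate numbers are shared between groups, but same-numbered libraries did not deviate together (correlations between -0.04 and 0.02 over 14168 genes, and not every library correlated best with its own number). With the replicate number as a block, 0, 0 and 2 members and 0, 2 and 11 other pathway genes were called in the 3 comparisons, and 91, 501 and 2075 of all genes.

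Signs changed only for members that were not called: in siSRF against siC, TNRC6A (between -0.061 and 0.033 when 1 library was left out), DROSHA (between -0.11 and 0.0014 likewise) and TNRC6C (0.057 with GC content and length taken out), and in siIGF2BP1 against siSRF, TNRC6B (-0.017) and DGCR8 (-0.090) with GC content and length taken out and DGCR8 when 1 library was left out (between -0.040 and 0.069).

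With reads not divided by gene length, the difference in AGO2 share was 10.2 percentage points in siSRF against siC and -9.08 in siIGF2BP1 against siSRF. That in AGO3 share was 6.50 in siIGF2BP1 against siC and 3.97 against siSRF, and that in AGO4 share was 1.36, -2.60 and 3.96 in the 3 comparisons. AGO4 rested on 44 to 116 reads per library, which limits its precision.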
